A study of Rattus norvegicus with 6 samples.

Results

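The 9 genes of the heart muscle sarcomere described here were chosen by name from a table of 34510 genes measured in neonatal rat ventricular cardiomyocytes, a primary culture of the contractile cells of the newborn heart. Myom1, Myom2 and Myom3 encode the myomesins of the M-band. Actn2, Ldb3, Myoz2, Nebl and Csrp3 encode proteins of the Z-disc. Mybpc3 encodes cardiac myosin-binding protein C, which lies in the C-zone of the thick filament, so the M-band and Z-disc label does not cover it. Poly(A) RNA was sequenced in 3 libraries titled Trim28 and 3 titled Bgal. The series' design text speaks of infection by an adenovirus carrying TRIM28, a chromatin corepressor (Ad-Trim28). What Bgal stands for, and which virus went into those cells, is not spelled out, and no dose, time, strain, animal number or culture batch is given. All 6 libraries have the same labelled cell type. No label tells whether the cultures or animals were separate. The p-values speak for the spread among these 6 libraries alone, which may be technical.

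The sarcomere is the contractile unit of striated muscle. Thin actin filaments are anchored in the Z-disc at its ends, where alpha-actinin cross-links them, and thick myosin filaments are tied together in the middle by the M-band. Titin runs from the Z-disc to the M-band. Mutations in several of these genes cause human cardiomyopathy, and the balance of myomesins changes as the heart matures.

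Gene reads ranged from 26146166 to 28298731 in the Trim28 libraries and from 28574951 to 34593292 in the Bgal libraries. Trim28 itself stood at 2923, 2890 and 980 FPKM in the Trim28 libraries, against 81.6, 87.8 and 77.6 FPKM in the Bgal libraries. FPKM counts fragments relative to the length of the gene and the size of the library. All 8 cardiomyocyte markers sought were present in every library. Their summed level was 20240 to 20650 FPKM in Trim28 libraries and 16880 to 19500 FPKM in Bgal libraries. The largest part of this sum was Actc1, at 9018 ± 164 FPKM in Trim28 and 5714 ± 859 FPKM in Bgal (SD, n = 3 each). In the limma test described below, 20.1% of all tested genes were higher in Trim28 and 21.1% lower, which holds beside each marker count here. Among the 8 markers 2 rose (Actc1 and Myh7), 3 fell (Tnnt2, Tnni3 and Pln) and 3 did not pass, so the sum does not stand for each marker. The summed markers of other cells were higher in the Trim28 libraries for fibroblasts (755 to 818 FPKM, against 423 to 443 in Bgal), for smooth muscle and mural cells (1607 to 1706 FPKM, against 787 to 1035) and for leukocytes (63.6 to 65.2 FPKM, against 26.9 to 27.4). By gene, 6 of 7 fibroblast and 6 of 6 leukocyte markers rose, and 0 fell. Of 8 smooth muscle and mural markers 6 rose, 1 fell and 1 did not pass. Their sum is mostly Acta2, at 1342 ± 52.1 FPKM in Trim28 and 692.5 ± 111 FPKM in Bgal (SD, n = 3 each), while the pericyte marker Abcc9 fell 1.97-fold and Rgs5 did not pass. No marker of these 3 lists was at 0 in every library. The leukocyte marker Adgre1 and the mural marker Kcnj8 reached the filter of 0.5 FPKM through the Trim28 libraries alone, where they are higher. Their calls therefore add no support. The 4 endothelial markers found summed to 8.20 to 9.13 FPKM in Trim28 and 9.64 to 10.5 FPKM in Bgal. Only 2 of them were tested, and they went opposite ways. Kdr, most of the sum, fell to 6.06 ± 0.276 FPKM in Trim28 against 8.07 ± 0.642 FPKM in Bgal. Tek rose to 2.14 ± 0.35 FPKM in Trim28 against 1.23 ± 0.09 FPKM in Bgal. The 5 skeletal muscle markers summed to 2.19 to 3.30 FPKM in Trim28 and 2.39 to 3.10 FPKM in Bgal. In bulk RNA, fewer cells of a type and less RNA per cell cannot be told apart.

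Of the 9 genes, 4 rose in the Trim28 libraries, 3 fell and 2 did not pass the test. Myom1, Actn2, Ldb3 and Myoz2 rose, by 1.21-fold to 1.55-fold. Myom2, Myom3 and Mybpc3 fell, and the fall of Myom2 was 4.33-fold. Myom3 entered the test through the Bgal libraries alone, where it is higher, so its call adds no support, and with a filter of 2 FPKM it was not tested and 2 genes fell. Nebl and Csrp3 did not pass. The test was limma on log2(FPKM + 1), with Benjamini-Hochberg adjustment over the 14808 genes that had at least 0.5 FPKM in at least 3 libraries, and a threshold of 0.05 on the adjusted p. By the same test 41.2% of all tested genes passed, 20.1% being higher and 21.1% lower in Trim28. Changes are therefore common in this table, and the median log2 change was 0.05 over the 9 genes and -0.02 over all tested genes.

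**Figure D1:**
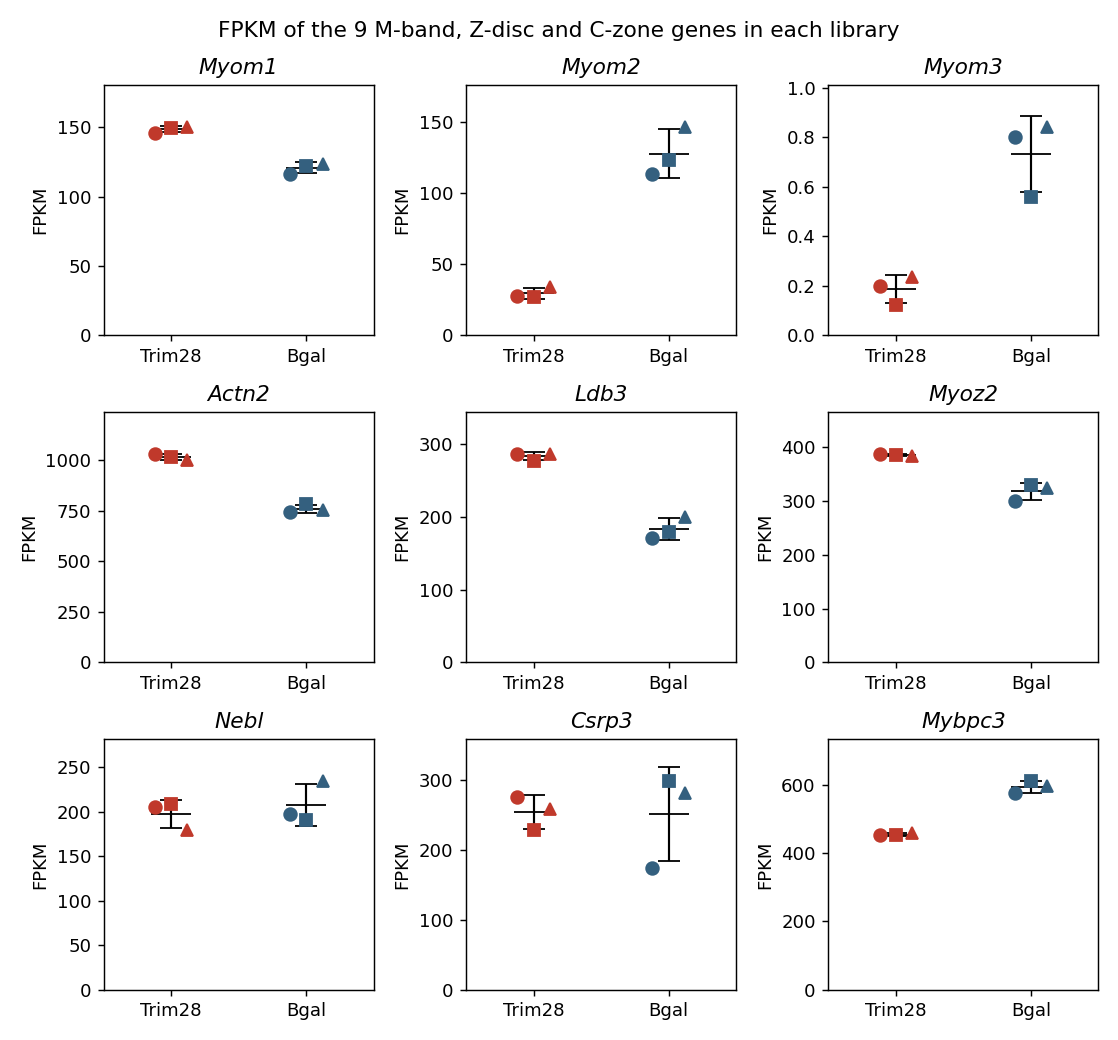
FPKM (y axis, linear, from 0, with its own scale for each gene) of the 9 genes in the Trim28 (left, red) and Bgal (right, blue) libraries. Circles, squares and triangles are replicates 1, 2 and 3, and bars are the mean and SD of 3 libraries. The groups overlap for Nebl and Csrp3 and are apart for the other genes. How many of all tested genes have groups apart was not counted.

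The order of the 9 levels, on the FPKM scale, was the same in the 3 Trim28 libraries. It ran from Actn2 through Mybpc3, Myoz2, Ldb3, Csrp3, Nebl and Myom1 to Myom2 and Myom3. Ldb3 and Csrp3 were close neighbours there, since the lowest Ldb3 value was 277.1 FPKM and the highest Csrp3 value 276.8 FPKM. In the Bgal libraries Actn2, Mybpc3 and Myoz2 also led. Ldb3 came after Csrp3 and Nebl in each Bgal library, although its range overlapped theirs. The order of Csrp3 and Nebl, and that of Myom2 and Myom1, was not the same in the 3 Bgal libraries. No other entry of the table overlaps any of the 9 genes by position (0 entries on either strand), so reads of an annotated overlapping or antisense neighbour do not enter their values.

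RefSeq promoter windows (build GRCr8) were available for 7 of the 9 genes, all but Myom2 and Csrp3, and were searched for short motifs known from heart muscle promoters over the 250 bases before the start. A MEF2 motif was present in 3 of the 7 windows (Myoz2, Mybpc3 and Myom3), against 2.96% of all 33469 windows of that length. A CArG box, the motif of serum response factor, was present in 2 (Ldb3 and Nebl), against 1.5%. A GATA motif (GATAA) was found in Mybpc3, against 23.5% of all windows. The E-box (CANNTG) was found in 6 of the 7, against 65.5% of all windows, the MCAT motif (CATTCC) in 0 against 12.1%, and the TATA box (TATAAA) in 0 against 12.9%. Both strands were searched, and 0 pairs of these matches overlapped in the 7 windows. The 4 windows below are shown because they hold the MEF2 motif or the CArG box in genes that changed, with MEF2, CArG and GATA matches in capitals and the rest in lower case. They lie at chr16:9924680-9924929 (minus strand), chr2:213852779-213853028 (minus strand), chr3:97550811-97551060 (plus strand) and chr5:153276056-153276305 (plus strand).
Ldb3: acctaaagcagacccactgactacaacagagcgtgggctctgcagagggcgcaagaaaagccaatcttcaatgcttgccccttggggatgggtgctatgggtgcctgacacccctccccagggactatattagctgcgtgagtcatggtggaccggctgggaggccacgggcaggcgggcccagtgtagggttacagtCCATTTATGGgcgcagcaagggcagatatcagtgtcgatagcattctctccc
Myoz2: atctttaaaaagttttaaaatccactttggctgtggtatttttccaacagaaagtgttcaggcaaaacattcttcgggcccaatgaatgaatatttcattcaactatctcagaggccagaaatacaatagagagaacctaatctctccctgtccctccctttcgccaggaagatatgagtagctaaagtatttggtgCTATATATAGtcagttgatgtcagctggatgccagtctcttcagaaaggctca
Mybpc3: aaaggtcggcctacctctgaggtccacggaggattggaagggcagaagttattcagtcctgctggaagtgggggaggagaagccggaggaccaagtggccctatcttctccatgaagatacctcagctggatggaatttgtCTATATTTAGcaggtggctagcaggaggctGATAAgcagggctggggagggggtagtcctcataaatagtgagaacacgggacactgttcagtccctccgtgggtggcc
Myom3: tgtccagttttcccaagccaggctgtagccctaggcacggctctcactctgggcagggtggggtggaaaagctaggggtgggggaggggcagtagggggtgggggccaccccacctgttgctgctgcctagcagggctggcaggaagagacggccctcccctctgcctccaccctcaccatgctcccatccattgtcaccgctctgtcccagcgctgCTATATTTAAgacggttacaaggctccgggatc
The MEF2 motif lay 53 to 44 bases before the start of Myoz2, which rose, 109 to 100 bases before that of Mybpc3 and 33 to 24 bases before that of Myom3, which both fell. Myom3 reached the filter through the Bgal libraries alone, so its fall adds no support. Without it, genes with this motif still changed in both directions, since Myoz2 rose and Mybpc3 fell. A match is a run of letters and does not show that a factor binds there.

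The M-band genes changed in opposite directions. Myom2 encodes M-protein, a myomesin of adult heart and fast skeletal muscle (ENSRNOG00000011754, chromosome 16, 79587640 to 79671719, minus strand; the sources used here do not name the table's genome build). It stood at 27.8, 27.0 and 33.8 FPKM in the Trim28 libraries, against 113.6, 123.2 and 147 FPKM in the Bgal libraries. The groups were far apart, with all Trim28 libraries below all Bgal libraries. The mean was 29.6 ± 3.71 FPKM in Trim28 and 127.9 ± 17.2 FPKM in Bgal (SD, n = 3 each). In limma this was a log2 change of -2.08 (SE 0.11, 95% confidence interval -2.34 to -1.81, adjusted p = 5.22e-05). Between 3201 and 4380 reads in Trim28 and between 16151 and 22801 reads in Bgal stood behind these values.

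Myom1, which encodes myomesin 1, the constitutive cross-linker of myosin tails and titin (ENSRNOG00000057701, chromosome 9, 119353840 to 119468715, plus strand), moved the other way. It stood at 146.3, 149.7 and 150.6 FPKM in Trim28 libraries, against 116.5, 122.2 and 123.9 FPKM in Bgal libraries. Every Trim28 library lay above every Bgal library. This rise was 0.30 on the log2 scale (SE 0.04, 95% confidence interval 0.20 to 0.39, limma adjusted p = 0.00127).

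Myom3, a myomesin known from skeletal muscle fibres (ENSRNOG00000032994, chromosome 5, 154112076 to 154159601, plus strand), was barely present. It had 0.199, 0.124 and 0.234 FPKM in Trim28, against 0.801, 0.558 and 0.843 FPKM in Bgal, from 24, 14 and 29 reads and from 123, 70 and 125 reads. The groups did not overlap, but the gene passed the filter through the Bgal libraries alone. Its log2 change of -0.55 (SE 0.12, limma adjusted p = 0.0112) is compressed by the pseudocount, and was -1.55 with a pseudocount of 0.1 FPKM and -2.01 in limma-voom on reads recovered from the FPKM steps. The mean in Bgal was 3.95 times that in Trim28.

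The makeup of the myomesin transcripts differed between the groups. Myom2 made up 16%, 15.3% and 18.3% of the summed myomesin FPKM in the Trim28 libraries, against 49.2%, 50.1% and 54.1% in the Bgal libraries. Myom1 made up 83.4% ± 1.61 in Trim28 and 48.6% ± 2.61 in Bgal (SD, n = 3 each). The 3 genes together summed to 178.6 ± 5.36 FPKM in Trim28 and 249.5 ± 20.7 FPKM in Bgal. The log2 ratio of Myom2 to Myom1 was -2.34 ± 0.16 in Trim28 and 0.07 ± 0.15 in Bgal, a difference of -2.41 with no overlap between the groups. The exact permutation p of this difference was 0.1, the smallest that 3 against 3 libraries allow, or 0.133 after Benjamini-Hochberg adjustment over 8 gene pairs. The ratio of Myom2 to Myom3 differed by -0.10, within the spread of the libraries (exact permutation p = 0.7). With 1 FPKM added to both genes, which compresses the low Myom3 values, the difference was -1.53 (exact permutation p = 0.114 after adjustment over the 8 pairs).

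**Figure D2:**
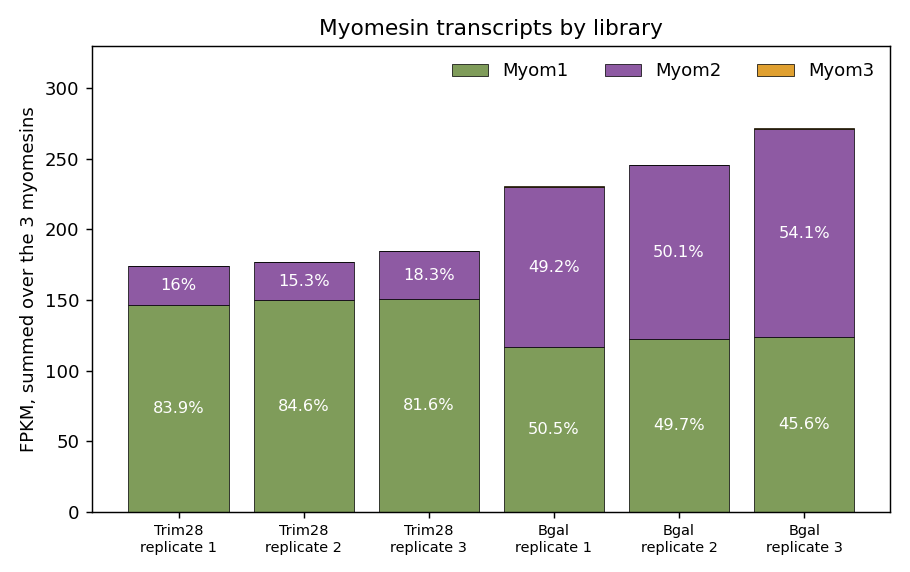
FPKM of Myom1, Myom2 and Myom3 (y axis, stacked bars from 0) in each library, with the share of the sum printed in each bar. Myom2 holds 15.3% to 18.3% of the sum in the Trim28 libraries on the left and 49.2% to 54.1% in the Bgal libraries on the right, and Myom3 is too low to be seen.

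Of the 5 Z-disc genes, 3 rose. Actn2 encodes alpha-actinin 2, the cross-linker of thin filaments in the Z-disc of heart and skeletal muscle (ENSRNOG00000017833, chromosome 17, 66304501 to 66397653, minus strand). It was the highest of the 9 genes, at 1033, 1019 and 1004 FPKM in Trim28, against 745, 784 and 754 FPKM in Bgal. The Trim28 libraries were alike and all above the Bgal libraries. The gene rose by 0.42 on the log2 scale (SE 0.04, limma adjusted p = 0.000458).

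Ldb3 encodes ZASP, also called Cypher, a PDZ and LIM domain protein that binds alpha-actinin (ENSRNOG00000059166, chromosome 16, 10878334 to 10941501, minus strand). It had the largest rise of the 9 genes, 1.55-fold. Its values were 286.3, 277.1 and 287.1 FPKM in Trim28, against 170.7, 179.7 and 200.1 FPKM in Bgal. On the log2 scale this was 0.63 (SE 0.06, 95% confidence interval 0.48 to 0.77, limma adjusted p = 0.000342), and the groups did not overlap.

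Myoz2 encodes calsarcin 1, which ties alpha-actinin to the phosphatase calcineurin (ENSRNOG00000014815, chromosome 2, 227180886 to 227207635, minus strand). It stood at 387.9, 386.4 and 384.6 FPKM in Trim28, against 300.3, 330.1 and 324.4 FPKM in Bgal. The Trim28 libraries differed by little, with an SD of 1.67 FPKM, and lay above all Bgal libraries. The rise was 1.21-fold (log2 change 0.28, SE 0.05, limma adjusted p = 0.00315).

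Nebl encodes nebulette, a nebulin-like protein of the cardiac Z-disc, and also a shorter LIM and SH3 protein that a value per gene does not separate (ENSRNOG00000049452, chromosome 17, 84140489 to 84488601, minus strand). Its values were 205.3, 208.1 and 179.6 FPKM in Trim28, against 197.6, 190.5 and 234.5 FPKM in Bgal. The groups overlapped. The log2 difference was -0.07 with a 95% confidence interval of -0.28 to 0.15 (limma adjusted p = 0.587).

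Csrp3 encodes muscle LIM protein, which binds alpha-actinin and is linked to stretch sensing (ENSRNOG00000014327, chromosome 1, 104147206 to 104166367, minus strand). It stood at 276.8, 228.7 and 259.2 FPKM in Trim28, against 174, 299.1 and 281.4 FPKM in Bgal. Bgal replicate 1 was the lowest of all 6 libraries, and the other Bgal libraries were the highest. The log2 difference was 0.05 with a wide 95% confidence interval of -0.40 to 0.51 (limma adjusted p = 0.847). Without Bgal replicate 1 it was -0.19 (limma adjusted p = 0.133), and without Trim28 replicate 1 it was -0.0071 (limma adjusted p = 0.984). Its direction therefore depends on which library is left out. Bgal replicate 1 also had the lowest sum of cardiomyocyte markers, 16880 FPKM, of which Actc1 was the largest part at 4740 FPKM. Against the other Bgal libraries, replicate 1 was the lowest for Actc1, Myh7, Tnnc1, Tnnt2, Tnni3 and Ryr2. For Myh6 and Pln it lay between them. Against the Trim28 libraries the single markers were mixed in that library. Actc1, Myh7 and Tnnc1 were lower there than in every Trim28 library. Myh6, Tnnt2, Tnni3 and Pln were higher than in every Trim28 library, and Ryr2 lay between. The part of these markers in the Csrp3 value was not tested.

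Relative to Actn2, the other Z-disc genes did not keep pace evenly. The log2 ratio to Actn2 differed between Trim28 and Bgal by 0.21 for Ldb3, by -0.14 for Myoz2 and by -0.49 for Nebl, each with no overlap between the groups. For Csrp3 the difference was -0.37 and the groups overlapped. The exact permutation p was 0.1 for the first 3 and 0.3 for Csrp3, or 0.133 and 0.343 after adjustment over the 8 pairs, so none passed in a design where none could.

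Mybpc3, the thick filament gene, fell (ENSRNOG00000012307, chromosome 3, 79940561 to 79958730, plus strand). Its protein holds myosin heads near the filament backbone and is a frequent site of mutation in hypertrophic cardiomyopathy. The gene stood at 453, 452.2 and 459.3 FPKM in Trim28, against 576.2, 611.8 and 597 FPKM in Bgal. All Trim28 libraries were below all Bgal libraries. The fall was 1.31-fold, or -0.39 on the log2 scale (SE 0.04, limma adjusted p = 0.000512). Relative to Myh6, the alpha myosin heavy chain, Mybpc3 differed by -0.30 on the log2 scale (exact permutation p = 0.1).

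The same directions were seen relative to the geometric mean of the 8 cardiomyocyte markers of each library. On that scale the differences between Trim28 and Bgal were 0.26 for Myom1, 0.38 for Actn2, 0.59 for Ldb3 and 0.24 for Myoz2. They were -2.15 for Myom2, -2.05 for Myom3 and -0.43 for Mybpc3. For these genes the groups did not overlap, with an exact permutation p of 0.1, or 0.129 adjusted over the 9 genes. Myom3 reached the filter through the Bgal libraries alone, where it is higher, so its value adds no support. How many of all tested genes would be apart on this scale was not counted. Nebl (-0.11) and Csrp3 (0.01) overlapped. The markers themselves were not steady, since 2 of the 8 rose and 3 fell in limma. Their geometric mean nonetheless differed little between the groups. Without this scaling the limma log2 changes were already 0.63 for Ldb3 and -0.39 for Mybpc3. The like directions are therefore not a separate check.

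**Figure D3:**
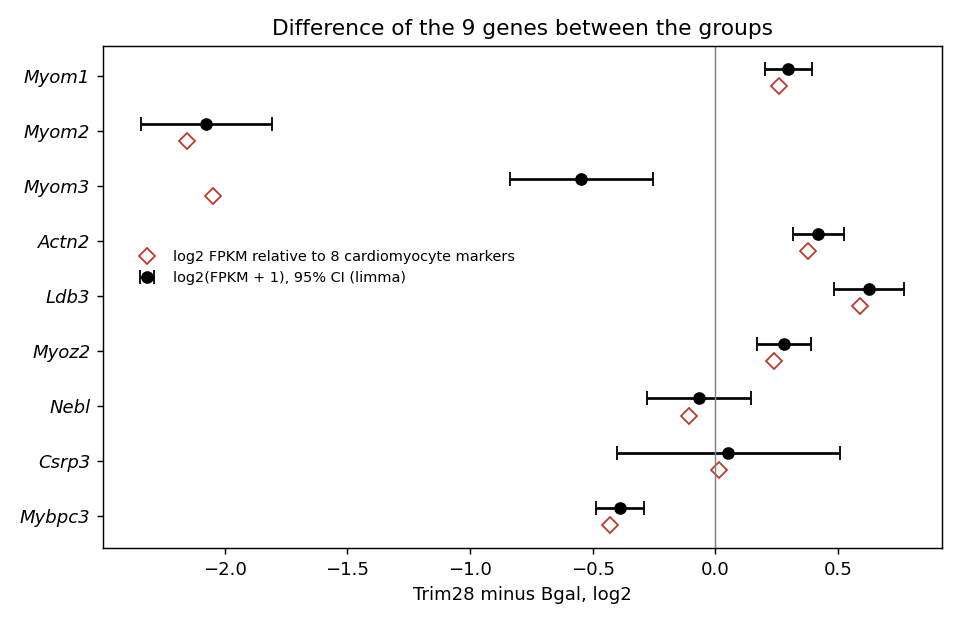
Difference between Trim28 and Bgal libraries (x axis, log2) for the 9 genes. Black points are log2(FPKM + 1) with the 95% confidence interval of limma, and red diamonds are log2 FPKM relative to the 8 cardiomyocyte markers. The intervals of Nebl and Csrp3 cross 0, and Myom3 lies at -0.55 on the first scale, which has a pseudocount, and at -2.05 on the second, which has none.

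Relatives of the 9 genes were compared to see whether a change was shared by the family. Of 18 relatives 12 were tested, of which 7 rose, 2 fell and 3 did not pass, with a median log2 change of 0.32 against -0.02 for all tested genes, of which 20.1% rose and 21.1% fell. Actn4, a non-muscle alpha-actinin, rose 1.80-fold, to 297.1 ± 5.95 FPKM in Trim28 against 165.2 ± 12.7 FPKM in Bgal (SD, n = 3 each, limma adjusted p = 0.000111). Actn2 was therefore a smaller part of all alpha-actinin FPKM in Trim28 (73.1% ± 0.272) than in Bgal (77.6% ± 0.849), although it rose. Csrp1, a relative of Csrp3 that is abundant in smooth muscle, rose 1.79-fold, to 279.4 ± 17.5 FPKM in Trim28 against 156.5 ± 8.06 FPKM in Bgal. Csrp2 fell to 56.9 ± 1.91 FPKM in Trim28, against 71.4 ± 0.731 FPKM in Bgal.

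Lasp1, a LIM and SH3 relative of nebulette, rose 1.62-fold and Pdlim1, a PDZ and LIM relative of Ldb3, fell 1.23-fold. Nebulin itself (Neb) was near 0, at 0.0271 ± 0.0147 FPKM in Trim28 and 0.0317 ± 0.0103 FPKM in Bgal, and so was the skeletal Actn3. Mybpc1 had a value above 0 in 1 Trim28 and 1 Bgal library. The skeletal muscle relatives Myoz1 and Myoz3 stayed below 0.7 FPKM in every library. Several of the relatives that rose are not specific to muscle, and the summed markers of fibroblasts, mural cells and leukocytes were higher in the same libraries; their part in these values was not tested.

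Partners at the M-band and along titin were mostly lower. Of 11 genes sought 10 were tested, of which 7 fell, 1 rose and 2 did not pass, with a median log2 change of -0.31. By comparison, 21.1% of all tested genes fell. Lrrc39, which encodes a myosin-binding protein of the M-band, fell 2.30-fold, to 6.52 ± 0.317 FPKM in Trim28 against 15.0 ± 1.17 FPKM in Bgal (limma adjusted p = 0.000103). Ckm, the muscle creatine kinase that is partly bound to the M-band, fell 1.83-fold, to 152.3 ± 10.5 FPKM in Trim28 against 278.9 ± 5.90 FPKM in Bgal. Trim63, which encodes the ubiquitin ligase MuRF1 that binds titin near the M-band, fell 1.59-fold. The exception was Obsl1, which encodes an obscurin-like linker of titin and myomesin. It rose 1.58-fold, to 83.9 ± 11.0 FPKM in Trim28 against 53.1 ± 2.72 FPKM in Bgal (limma adjusted p = 0.00187), with no overlap between the groups.

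Partners at the Z-disc were split. Of 20 genes sought 16 were tested, of which 8 rose, 6 fell and 2 did not pass, with a median log2 change of 0.18. Of all tested genes 20.1% rose and 21.1% fell. Fhl1, which encodes a LIM domain protein that binds titin, rose 3.15-fold, to 844.8 ± 47.1 FPKM in Trim28 against 268.3 ± 54.7 FPKM in Bgal (limma adjusted p = 0.000204). Synpo2l, an actin-associated Z-disc protein, rose 1.63-fold, and Xirp1, an actin-binding protein of cell contacts and myofibril repair, 1.45-fold. Cavin4, a caveola protein found near the Z-disc, fell 1.30-fold. Bag3, a co-chaperone of filamin turnover, fell 1.29-fold, and Capza2, a subunit of the protein that caps thin filaments in the Z-disc, 1.25-fold.

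Of 7 factors of sarcomere assembly 6 were tested, of which 4 fell, 1 rose and 1 did not pass, with a median log2 change of -0.37. Among all tested genes 21.1% fell and 20.1% rose. Daam1, a formin that assembles actin filaments, fell 1.81-fold, to 10.5 ± 0.516 FPKM in Trim28 against 19.0 ± 0.986 FPKM in Bgal (limma adjusted p = 0.000159). Tmod1, which caps the pointed ends of thin filaments, fell 1.33-fold and Smyd1, a methyltransferase needed for thick filament assembly, 1.32-fold. Hspb7, a small heat shock protein of heart muscle, rose 1.25-fold. Over the 4 lists together, 17 genes rose and 19 fell of 44 tested, against 20.1% and 21.1% of all tested genes.

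**Figure D4:**
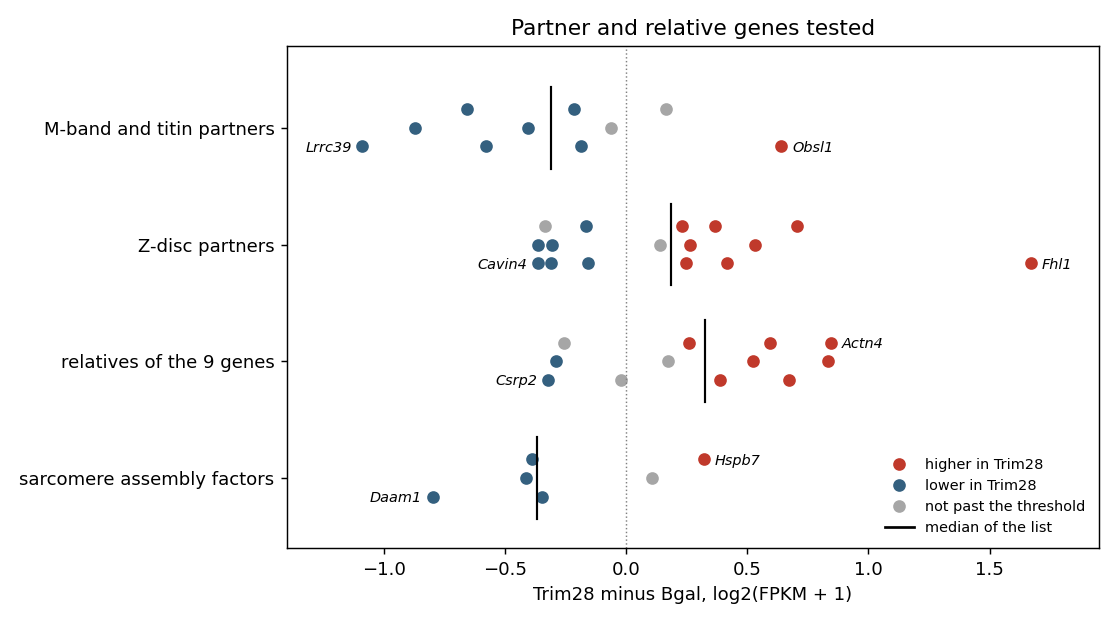
Difference between Trim28 and Bgal (x axis, log2(FPKM + 1)) for the tested partners and relatives, 1 point for each gene, spread vertically only for legibility. Red is higher in Trim28, blue lower, grey not past the threshold, and black lines are medians, at -0.31, 0.18, 0.32 and -0.37 from top to bottom.

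The genes outside these lists whose profile over the 6 libraries lay closest to that of Myom2 were Akr1c15, B3gat1, Reg3b, Ctla2a and Ptgds. Likeness was the Euclidean distance of log2(FPKM + 1) values centred on each gene's mean, and ran from 0.455 for Akr1c15 to 0.592 for Ptgds. Akr1c15 stood at 4.13, 4.25 and 4.99 FPKM in Trim28, against 21.1, 16.3 and 20.0 FPKM in Bgal. With 2 groups of 3 libraries, such likeness mainly records a fall of similar size.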

How the data were processed

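The deposited table holds FPKM per gene for each of the 6 libraries, per the file headers, with Ensembl rat identifiers, positions and gene lengths. Poly(A) RNA was selected and the second strand marked with dUTP, per the labels' protocols. HISAT2 2.0.5 and DESeq2 are named in the submitters' processing notes. Which counter, strand setting, genome build and annotation were used is not stated in the sources at hand. FPKM divides by gene length and library total, so a few abundant genes can shift all others. The 9 genes were found by exact symbol, and 7 of them in RefSeq's promoter table.

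The 14808 genes that reached 0.5 FPKM in 3 or more of the 6 libraries were compared as log2(FPKM + 1) with limma 3.58.1 in R 4.3.3, with a variance trend and two-sided tests. The transformation understates changes of low genes. Folds are ratios of mean FPKM. Ratios between genes were compared by two-sided exact permutation over libraries. The limma step was tested on simulated reads. Reads were recovered because FPKM times gene length fell on whole steps of a library constant for 100% of values above 0 (within 0.01). Libraries of a group differed beyond sampling noise (chi-square over degrees of freedom 6.53 to 17). The value was 6.53 for Trim28 replicates 1 and 2, and 17 for either of them with Trim28 replicate 3. Within Bgal it was 11.7 to 16.6. No error from counting alone was attached to these values, since the spread between libraries covers it.

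The 9 genes, the lists and the tests were chosen with earlier results of these data known. Of each list, the text names up to 3 genes with the largest rise and 3 with the largest fall among those past the threshold; Neb, Actn3, Mybpc1, Myoz1 and Myoz3 are given as relatives of the 9 genes, and were chosen after their values were seen. Symbols not found in the table were Ttn, Tcap, Palld, Pecam1 and Myh4.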

Additional observations from a re-analysis of the deposited data

How the results depend on the processing

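Settings tried were a pseudocount of 0.1, no filter, a filter of 2 FPKM, median ratio rescaling, no variance trend with robust moderation, limma-voom on recovered reads, the replicate number as a block, and leaving out each library in turn. The calls of Myom1, Myom2, Actn2, Ldb3, Myoz2 and Mybpc3 held in all 13 settings. Myom3 kept its call in the 12 settings that could test it, since it did not reach 2 FPKM. With the 0.5 FPKM filter it was tested through the Bgal libraries alone, so its call adds no support. The 19 partners and relatives named by rule kept their calls in all settings that tested them. Log2 changes ranged from -2.17 to -1.97 for Myom2 and from 0.58 to 0.69 for Ldb3. With a library left out, the difference of Nebl ranged from -0.126 to 0.0235, being highest without Bgal replicate 3 (limma adjusted p = 0.828). That of Csrp3 ranged from -0.191 without Bgal replicate 1 to 0.199, being -0.01 without Trim28 replicate 1 (limma adjusted p = 0.984), and relative to cardiomyocyte markers it ranged from -0.176 to 0.148 over the libraries left out. The Myom2 to Myom3 ratio ranged from -0.31 to 0.0608 likewise, and was -1.53 with 1 FPKM added to both genes. Genes higher among M-band partners numbered 2 without Bgal replicate 3, and among assembly factors 2 with median ratio rescaling, against 1 in each. The cause was not tested.

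The replicate number as a block left 2744 genes higher and 2922 lower, and 4 and 3 of the 9 genes. Deviations of same-numbered libraries correlated at -0.02, 0.13 and 0.01, so the numbers were not taken to pair the libraries, and the sign-flip test of gene ratios with the block could not pass, since its smallest p is 0.25 before adjustment (0.286 adjusted for Myom2 to Myom1). Myom3, with 14 to 29 reads in Trim28, is the value most limited by depth.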

Other observations

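Titin, the giant protein that spans from Z-disc to M-band, has no entry under its own symbol, but 3 entries are described as titin. They were chosen after their values were seen. Along the minus strand of chromosome 3, ENSRNOG00000022637 comes first (63820757 to 63836017), and fell to 43.7 ± 5.38 FPKM in Trim28, against 100.4 ± 4.7 FPKM in Bgal (SD, n = 3 each, limma log2 change -1.19, adjusted p = 0.000129). A gene model with no Ensembl identifier, the longest at 64484 bases, follows (63606856 to 63765077), at 15.0 ± 2.40 FPKM in Trim28 and 24.2 ± 5.03 FPKM in Bgal (limma log2 change -0.65, adjusted p = 0.0134). ENSRNOG00000023227 lies last (63566184 to 63568464), and stood at 503.7 ± 26.0 FPKM in Trim28 and 423 ± 38.4 FPKM in Bgal (limma log2 change 0.25, adjusted p = 0.0278). The call of this last entry was lost in 7 of 13 settings, with an adjusted p of 0.00807 to 0.0813. The 3 entries therefore gave unlike values for parts of 1 gene, and titin was left out of the counts of M-band partners.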
